A study of Mus musculus with 4 samples.

Results

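The genes described here move fatty acids into skeletal muscle, store them as triglyceride in lipid droplets and burn them in mitochondria. They are 48 of the 23282 gene rows of the deposited tables and were chosen by symbol, from knowledge of the pathway. Earlier results of these data were known when they were chosen. All 48 symbols were found, each in 1 row. In every comparison below all 48 passed the minimum for low values, which was 4 normalized reads in either library of the pair.

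Gastrocnemius muscle of male CDF1 mice was profiled by QuantSeq, a 3′ mRNA sequencing method that reads the end of each polyadenylated transcript. The design crossed high-intensity treadmill exercise with a tumor, raised by tail vein injection of CT26 cells, a mouse colorectal carcinoma line. The groups were normal control (no exercise, no tumor), normal exercise (exercise, no tumor), cancer control (tumor, no exercise) and cancer exercise (tumor and exercise). The labels give postnatal day 28 as the age of all groups, an age that the methods state for the mice at purchase. Each group had 10 mice and 1 library. Whether 1 animal or a pool went into a library is not said in the labels, and the text of the study speaks of a representative mouse per group. Where 4 values stand in a row, they are for healthy mice without and with exercise, then for tumor-bearing mice without and with exercise. No difference below has a replicate check, so no p-value is given. Intervals are 95% Clopper-Pearson intervals of read shares turned into log2 ratios, and they cover counting error only.

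Fatty acids reach the fibre after lipoprotein lipase frees them from circulating triglyceride, and carriers and binding proteins take them across the membrane. Inside the fibre they are joined to coenzyme A, then either stored in droplets coated by perilipins or passed through the carnitine shuttle into mitochondria, where beta-oxidation shortens them. Malonyl-CoA holds the shuttle back, and nuclear receptors of the PPAR family switch on many genes of the pathway when fatty acids are plentiful, as in fasting.

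The libraries held between 10647465 and 13226086 reads and between 14427 and 14830 genes with reads. The members had between 11 and 22696 reads per library. Markers of skeletal muscle were present throughout, with at least 5721 reads for each of 8 genes in each library. Taken as a share of all reads, the 48 members held 0.671%, 0.605%, 0.881% and 0.893%. Both libraries from tumor-bearing mice were therefore higher than both libraries from healthy mice. Such a share depends on the rest of the library, and the 10 genes with most reads held 23.6%, 20.4%, 13.6% and 16.4%. The 8 skeletal muscle markers held 8.16%, 7.58%, 4.5% and 5.8%. Between the libraries without exercise, Lpl went from 11994 to 22696 reads and Pnpla2 from 2838 to 12838, more than for any other member. Together these gains exceeded that of all 48 members, which went from 75668 to 93849 reads. Grouped by role, the share did not rise everywhere between these libraries. It fell for ketone body use (0.0761% to 0.0426%) and uncoupling proteins. It was also lower for acyl-CoA synthetases and thioesterases (0.0847% to 0.0829%) and electron transfer flavoprotein (0.0514% to 0.0496%). For both of these groups the counting intervals of the libraries overlapped. The share rose for uptake, lipid droplet, carnitine shuttle with malonyl-CoA, and beta-oxidation genes (the last from 0.179% to 0.197%). Uptake genes went from 20896 to 29425 reads, a smaller gain than that of Lpl, so the other uptake genes together lost reads. The log2 fold change with the tumor was negative for 4 of 6 uptake genes (median -0.29) and 8 of 14 beta-oxidation genes (median -0.34). The 17 genes of the citric acid cycle, which receives the acetyl-CoA made by beta-oxidation, held 0.669%, 0.630%, 0.542% and 0.667%. These shares are in the order used for the members.

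A gene is said to have risen or fallen where the deposited log2 values differed at least 2-fold. Exercise in healthy mice was accompanied by a rise of 1 member (2.08%), against 9.44% of all genes, and a fall of 6 members (12.5%), against 12.1% of all genes. Under total count scaling these counts were 2 and 5. The tumor without exercise was accompanied by a rise of 12 members (25%), against 20.9% of all genes, and a fall of 9 (18.8%), against 24.2%. With exercise in tumor-bearing mice 3 members rose (6.25%), against 15.6% of all genes, and 0 fell, against 15.1%. With the tumor in exercised mice 14 members rose (29.2%), against 13.9% of all genes, and 2 fell (4.17%), against 16.3%. With the tumor in exercised mice the share of members that rose was thus above the background and the share that fell below it. For rises with the tumor without exercise and for falls with exercise in healthy mice, the members stood close to this background. The background depended on the minimum. At 16 normalized reads, 988 of 12470 genes fell with exercise in healthy mice, and 2382 of 12768 rose with the tumor without exercise. These are lower shares of all genes than at the minimum of 4, while the counts of members stayed the same. With exercise in tumor-bearing mice the reading of rises depended on the threshold, since at 1.5-fold 14 members (29.2%) were higher, against 25.2% of all genes.

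Median log2 fold changes of the 48 members were -0.19 for exercise in healthy mice, -0.01 for the tumor without exercise, 0.32 for exercise in tumor-bearing mice and 0.37 for the tumor in exercised mice. Over all genes tested the medians were -0.01, -0.04, 0.01 and -0.03. The sign of the median for the tumor without exercise depended on the scaling, which gave 0.06 with total counts and 0.03 with the median of ratios. Of the 48 members, 25 changed at least 2-fold in at least 1 comparison and 23 in none. The highest of the 4 values was in cancer exercise for 22 members, normal control for 13, cancer control for 10 and normal exercise for 3. The lowest was in normal exercise for 18 and in cancer control for 16, but in cancer exercise for only 2. Shares of all genes were not computed for these counts, so they describe the members only.

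**Figure D1:**
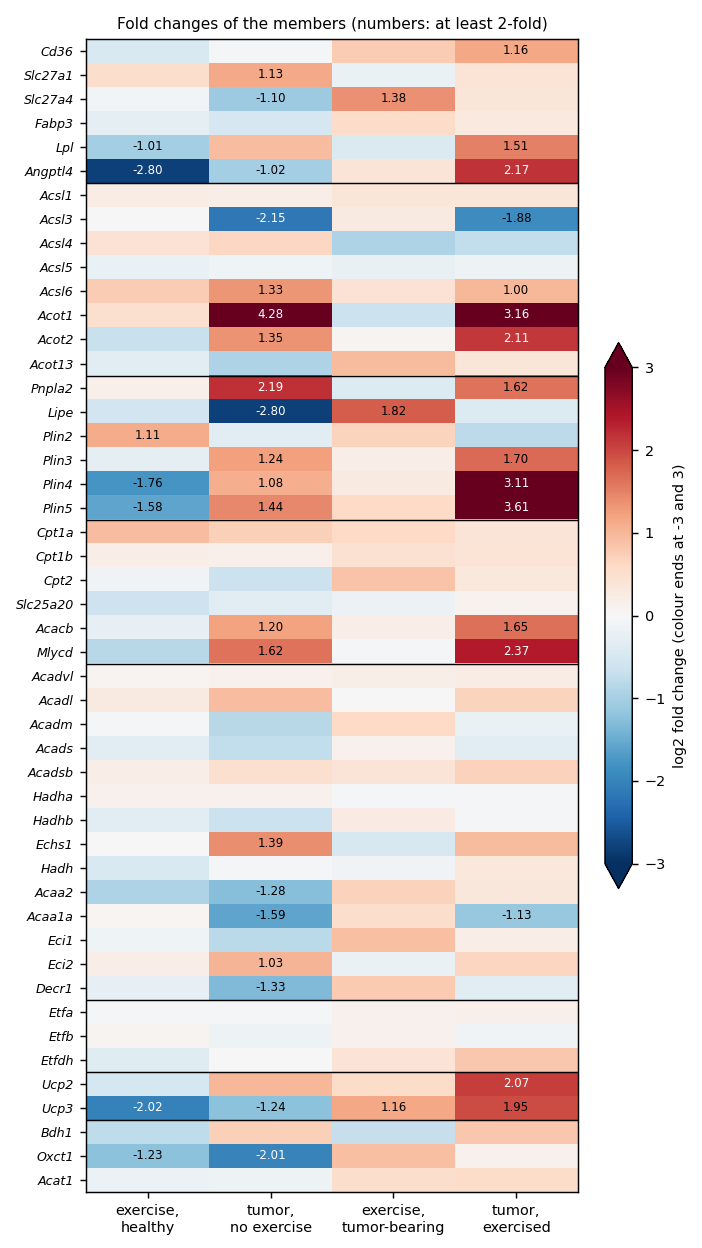
Log2 fold change of each of the 48 members (rows, grouped by role) in the 4 comparisons (columns), with the value printed where it was at least 2-fold. Printed values are frequent among lipid droplet, uptake, malonyl-CoA and uncoupling protein genes, and some synthetases and thioesterases carry them. Most rows of beta-oxidation enzymes are pale and the 3 electron transfer flavoprotein genes carry none.

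Among the uptake genes Lpl, Angptl4 and Cd36 were lowest in normal exercise, and Fabp3 and Slc27a4 in cancer control. Of the 6, 2 (33.3%) fell with exercise in healthy mice (Lpl and Angptl4), against 12.1% of all genes. With the tumor in exercised mice 3 (50%) rose (Lpl, Angptl4 and Cd36), against 13.9%. Lpl encodes lipoprotein lipase. Its normalized read count was 12756, 6316, 24305 and 18028. Both libraries from tumor-bearing mice were above both from healthy mice. The share of all genes with this order was not computed. The log2 fold change was -1.01 (-1.06 to -0.97) for exercise in the healthy pair and 1.51 (1.47 to 1.55) with the tumor in exercised mice. The first of these was -0.85 under total count scaling, short of 2-fold.

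Angptl4 encodes a secreted inhibitor of lipoprotein lipase and is a well-known PPAR target. It had normalized read counts of 168, 23.3, 82.5 and 108 from 158, 29, 77 and 100 reads. Normal exercise was the low library by a wide margin. Angptl4 was 6.95-fold lower with exercise than without it in healthy mice (log2 -2.80, -3.46 to -2.26) and 4.49-fold higher with the tumor in exercised mice (log2 2.17, 1.59 to 2.85). With the tumor and no exercise it fell by 1.02 on the log2 scale (-1.44 to -0.63), a change that was between -0.95 and -0.99 under 4 other settings.

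Cd36, the fatty acid translocase of the fibre membrane and of capillary endothelium, had normalized read counts of 2076, 1506, 1981 and 3377 in the same order. Only its difference between cancer exercise and normal exercise reached 2-fold, at 1.16 (1.08 to 1.25). Slc27a1 and Slc27a4 encode fatty acid transport proteins of 1 family and moved apart. Slc27a1 had 60.6, 87.5, 134 and 117, and rose with the tumor without exercise by 1.13 (0.68 to 1.62). Slc27a4 had 146, 137, 67.5 and 178, so that cancer control alone was low, with a log2 fold change of -1.10 (-1.57 to -0.67) for the tumor without exercise and 1.38 (0.97 to 1.84) for exercise in tumor-bearing mice. Fabp3, the fatty acid binding protein of heart and muscle cytosol, stayed between 4941 and 7180 and changed 2-fold in no comparison.

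**Figure D2:**
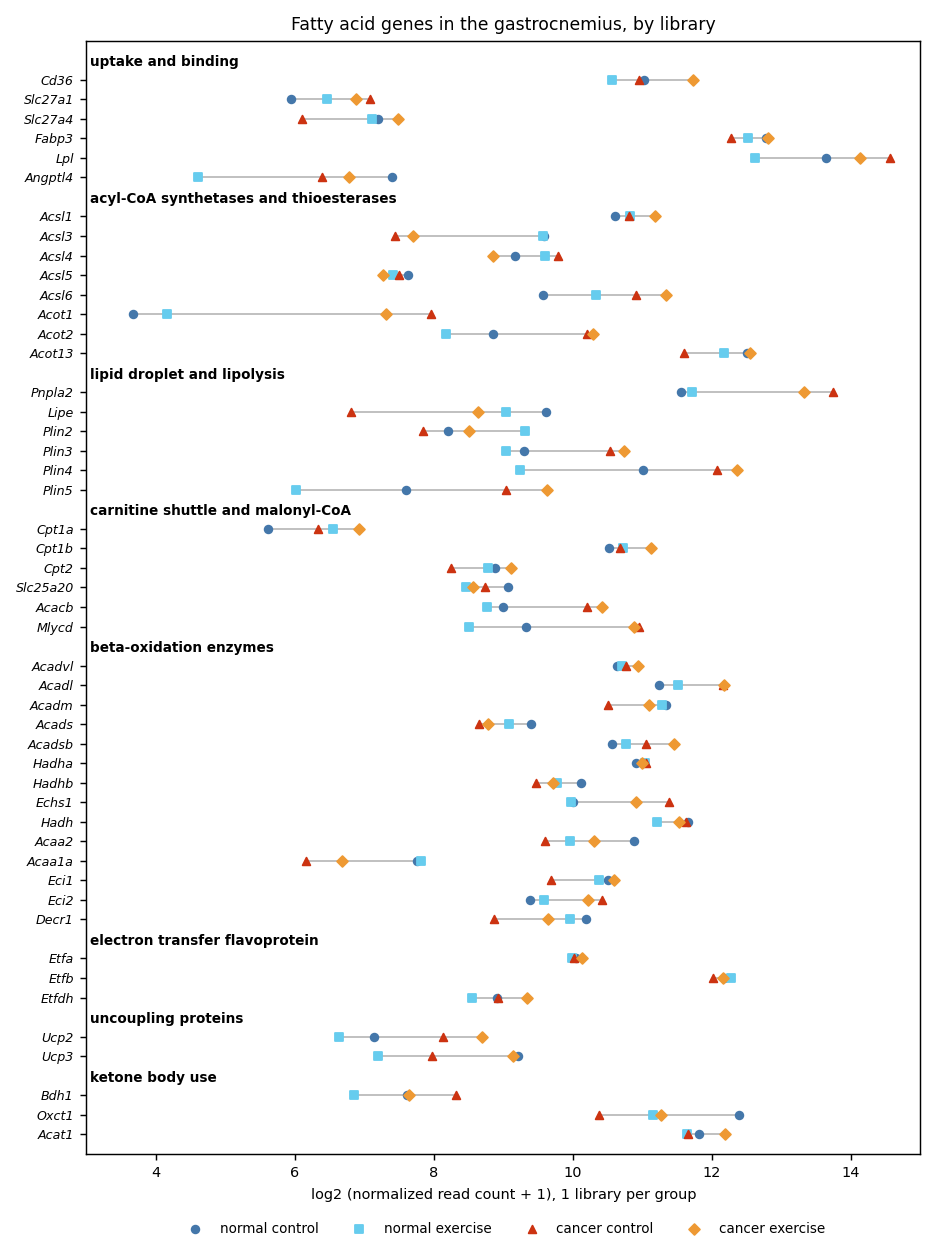
Level of each of the 48 members in the 4 libraries (log2 of normalized reads plus 1), with a grey line over the range of each gene. Acot1 has the widest range (4.28), and Plin5, Plin4, Angptl4 and Lipe follow, while Etfa spans 0.15.

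Several of these uptake and lipolysis genes are also used by fat cells, and fat cell markers differed between the libraries. The summed normalized read count of 10 adipocyte markers, of which Fabp4, Plin1 and Cidec also stand in other lists below, was 38762, 21602, 12670 and 26747. With the tumor and no exercise all 10 fell, with a median of -3.0, and Lep and Adrb3 went to 0 reads in cancer control. Of the 10, 6 fell and 0 rose with exercise in healthy mice (median -1.55), and with exercise in tumor-bearing mice 6 of the 8 that passed the minimum rose, with a median of 1.45. For the tumor in exercised mice the counts were 2 higher and 1 lower, the latter Lep at 0 reads in cancer exercise, with a median of -0.18. Setting genes without reads to a floor of 3 reads left the medians at -3.0 and -0.18. The 7 erythroid markers held 2.08%, 0.480%, 2.06% and 4.23% of the reads of the 4 libraries. With exercise in healthy mice 5 of 5 fell, and with exercise in tumor-bearing mice and the tumor in exercised mice 7 of 7 rose, while the tumor without exercise gave 1 higher and 0 lower of 6. Slc4a1 was at 0 reads in cancer control. Of the 10 endothelial markers 0 fell and 1 at most rose in the first 3 comparisons, and 1 fell with the tumor in exercised mice. The part of these cell types in the member values was not tested. In whole tissue, fewer cells of a type and less RNA per cell cannot be told apart.

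The thioesterase genes Acot1 and Acot2 rose with the tumor, while the synthetases, which act in the opposite direction, moved apart. Of the 8 genes of this group, 3 rose and 1 fell with the tumor, both without and with exercise, and the genes were the same ones: Acot1, Acot2 and Acsl6 rose and Acsl3 fell. These are 37.5% and 12.5%, against 20.9% and 24.2% of all genes without exercise and 13.9% and 16.3% with it. None of the 8 changed 2-fold with exercise in healthy or in tumor-bearing mice. Acot1 encodes the cytosolic thioesterase that releases fatty acids from coenzyme A and is strongly induced by PPAR alpha in fasting. It rested on 11, 21, 231 and 146 reads, with normalized read counts of 11.8, 16.9, 247 and 158. Both values from tumor-bearing mice were above both from healthy mice, an order whose share among all genes was not computed. The log2 fold change was 4.28 (3.54 to 5.42) without exercise, the largest of any member in any comparison, and 3.16 (2.55 to 3.95) with exercise.

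Acot2, the mitochondrial relative of Acot1, had normalized read counts of 459, 289, 1174 and 1248. It rose with the tumor by 1.35 (1.19 to 1.52) without exercise and by 2.11 (1.94 to 2.28) with it. Both genes lie next to each other on the plus strand of chromosome 12 in GRCm38, Acot2 at chr12:83987861-83993873 and Acot1 at chr12:84009490-84018371. Of the 2223 runs of 50 bases in the Acot1 transcript, 23.7% also occur in Acot2, but 0 of the 251 runs in its last 300 bases, the end that QuantSeq reads. The promoters of this pair are shown because both genes rose together. They are the 120 bases before the RefSeq start (GRCm38.p6), chr12:84009382-84009501 for Acot1 and chr12:83987741-83987860 for Acot2, both on the plus strand, with the longest run of bases they share in capitals.
Acot1: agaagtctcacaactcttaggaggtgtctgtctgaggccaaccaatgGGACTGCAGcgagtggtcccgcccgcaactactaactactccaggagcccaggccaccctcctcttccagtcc
Acot2: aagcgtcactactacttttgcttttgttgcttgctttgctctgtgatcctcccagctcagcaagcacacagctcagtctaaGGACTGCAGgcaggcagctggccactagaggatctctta
The shared run was 9 bases long, so in these windows the neighbours have little sequence in common.

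Among the acyl-CoA synthetases, which activate fatty acids by joining them to coenzyme A, Acsl3 had normalized read counts of 767, 762, 173 and 207. Acsl3 fell with the tumor by 2.15 on the log2 scale (-2.41 to -1.90) without exercise and by 1.88 (-2.11 to -1.66) with it, and was the member that fell most in the latter comparison. Acsl6 went the other way, with 757, 1293, 1911 and 2588, a log2 fold change of 1.33 (1.21 to 1.46) without exercise and 1.0 (0.91 to 1.09) with it. The second value lies on the threshold and was 0.84 under total count scaling. Acsl1, the main synthetase of muscle and fat, ranged from 1552 to 2316, and Acsl5 from 153 to 197. Acsl4, which prefers arachidonate, had 572, 772, 881 and 462, and its log2 fold change of -0.93 with exercise in tumor-bearing mice was the lowest of any member there. Acot13 had 5836, 4643, 3092 and 5988 and changed 2-fold in no comparison, with cancer control the low library.

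Most lipid droplet genes rose with the tumor. Without exercise 4 of 6 rose (66.7%, against 20.9% of all genes) and 1 fell (16.7%, against 24.2%), with a median of 1.16. In exercised mice 4 rose (66.7%, against 13.9%) and 0 fell (against 16.3%), with a median of 1.66. The same 4 genes, Pnpla2, Plin3, Plin4 and Plin5, rose in both. Pnpla2 encodes adipose triglyceride lipase, which takes the first fatty acid off triglyceride. Its normalized read count was 3018, 3342, 13748 and 10268. The rise was 2.19 (2.13 to 2.25) without exercise and 1.62 (1.57 to 1.67) with it. Lipe, which encodes hormone-sensitive lipase, the next enzyme of lipolysis, moved in the opposite direction, with 784, 525, 111 and 396. Lipe fell with the tumor without exercise by 2.80 on the log2 scale (-3.13 to -2.52), the largest fall of any member there, and rose by 1.82 (1.51 to 2.16) with exercise in tumor-bearing mice, the largest rise there. Cancer control was also the library with the least adipocyte marker RNA. Of the exon bases of Lipe, 15.6% are shared with 4732471J01Rik on the other strand, and the strand setting of the counting was not given in the sources used here.

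The perilipins, which coat droplets and control the access of lipases, differed among themselves. Plin4 had normalized read counts of 2051, 605, 4326 and 5241, and Plin5, the perilipin of oxidative tissue that tethers droplets to mitochondria, had 194, 63.8, 527 and 791. For both genes the order of the libraries was normal exercise, normal control, cancer control and cancer exercise. Plin4 fell with exercise in healthy mice by 1.76 (-1.89 to -1.64) and rose with the tumor by 1.08 (1.0 to 1.16) without exercise and 3.11 (3.0 to 3.23) with it. Plin5 fell by 1.58 (-2.0 to -1.21) in the first of these comparisons and rose by 1.44 (1.20 to 1.70) and 3.61 (3.29 to 3.98) in the others. The last value is a 12.2-fold difference, the largest of any member between cancer exercise and normal exercise. Exercise in tumor-bearing mice left both under 2-fold, at 0.28 and 0.59.

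Plin4 (chr17:56100591-56109803) and Plin5 (chr17:56111601-56117596) are neighbours on the minus strand of chromosome 17. The 120 bases before the RefSeq start of each (GRCm38.p6) are shown because these genes moved in the same direction in all 4 comparisons, at chr17:56109783-56109902 for Plin4 and chr17:56117549-56117668 for Plin5, read on the minus strand. Capitals mark TATAA, the core of a TATA box.
Plin4: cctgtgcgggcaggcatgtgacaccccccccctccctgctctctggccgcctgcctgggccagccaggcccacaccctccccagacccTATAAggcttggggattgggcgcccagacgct
Plin5: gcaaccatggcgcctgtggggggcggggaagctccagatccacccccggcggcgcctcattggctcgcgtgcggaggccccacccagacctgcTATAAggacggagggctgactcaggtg
The letters begin 32 bases before the start in Plin4 and 27 in Plin5. Among the 49 promoter windows of the members, 3 (6.12%) held TATAA on the strand of the gene at 20 to 40 bases before the start, the other being that of Acacb at 34, against 3.52% of all 32851 windows. This search was made after the sequences of Plin4 and Plin5 had been seen, and a match is a description of letters only.

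Plin2 and Plin3 are expressed in most tissues. Plin2 had 292, 631, 229 and 364, with normal exercise the high library. It was the only member that rose with exercise in healthy mice, by 1.11 (0.91 to 1.31). Plin3 had 626, 523, 1477 and 1697, and rose with the tumor by 1.24 (1.10 to 1.38) without exercise and 1.70 (1.57 to 1.83) with it.

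Acacb and Mlycd, which act on malonyl-CoA, rose with the tumor, whereas the genes of the carnitine shuttle itself did not reach 2-fold in any comparison. Acaca, another gene of malonyl-CoA synthesis that is counted below with fatty acid synthesis, fell with the tumor by 1.02 without exercise and by 1.3 with it. Acacb encodes the acetyl-CoA carboxylase that makes malonyl-CoA at the mitochondrial surface, and its normalized read counts were 511, 433, 1178 and 1363. It rose with the tumor by 1.20 (1.05 to 1.36) without exercise and 1.65 (1.51 to 1.8) with it. Mlycd encodes malonyl-CoA decarboxylase, which removes the same molecule, and had 641, 361, 1973 and 1873. The rise of Mlycd was 1.62 (1.49 to 1.76) and 2.37 (2.23 to 2.53). For these enzymes of opposite action the libraries of tumor-bearing mice were all above those of healthy mice. How many of all genes had this order was not computed.

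Cpt1b, the carnitine palmitoyltransferase of muscle that malonyl-CoA inhibits, had 1467, 1680, 1635 and 2229, a range of 0.60 on the log2 scale. Its reads cannot be told apart from those of Gm44502, a gene model on the same strand that shares 81.4% of its exon bases. Cpt1a, the liver form, had 47.9, 92.4, 79.3 and 120, with log2 fold changes between 0.38 and 0.93, all above 0. The highest of these, for exercise in healthy mice, was 1.09 under total count scaling. Cpt2, on the inner membrane, had 471, 440, 302 and 550. Slc25a20, the carnitine carrier, had 537, 351, 425 and 376.

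Of the 14 beta-oxidation enzymes, 0 changed 2-fold with exercise in healthy mice and 0 with exercise in tumor-bearing mice. The tumor without exercise gave 2 higher (14.3%) and 3 lower (21.4%), not far from the 20.9% and 24.2% of all genes, with a median of -0.34, and in exercised mice 0 rose and 1 fell, with a median of 0.22. The genes that rose were Echs1, an enoyl-CoA hydratase, and Eci2, an enoyl-CoA isomerase. Echs1 had normalized read counts of 1020, 1004, 2673 and 1927, a log2 fold change of 1.39 (1.28 to 1.5). Eci2 had 669, 767, 1370 and 1193, a change of 1.03 (0.89 to 1.17).

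The genes that fell were Acaa2, the thiolase of the mitochondrial matrix, Acaa1a, a peroxisomal thiolase, and Decr1, a reductase needed for unsaturated fatty acids. Acaa2 had 1885, 994, 777 and 1264 and fell by 1.28 (-1.41 to -1.15). Decr1 had 1168, 992, 464 and 799 and fell by 1.33 (-1.50 to -1.17). Acaa1a had 215, 225, 70.8 and 102 and fell by 1.59 (-2.03 to -1.20). Acaa1a also fell in exercised mice, by 1.13 (-1.49 to -0.80). In Acaa2 and Decr1 cancer control was the lowest library and the value in cancer exercise was between those of cancer control and normal control.

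The subunits of the trifunctional protein and the acyl-CoA dehydrogenases, which carry the main flux of long chains, did not reach 2-fold. Hadha ranged from 1920 to 2122 and Hadhb from 709 to 1111. Among the dehydrogenases, Acadvl (very long chains) ranged from 1582 to 1957 and Acadm (medium chains) from 1454 to 2597. Acadl (long chains) had 2419, 2905, 4591 and 4598, and its log2 fold change of 0.92 (0.85 to 1.0) with the tumor without exercise was the nearest to the threshold of these genes. Dvl2, on the other strand, shares 42.9% of the exon bases of Acadvl.

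Electron transfer flavoprotein, which passes electrons from the dehydrogenases to the respiratory chain, did not change 2-fold in any of its genes. Etfa had 1056, 1011, 1032 and 1125, a range of 0.15 on the log2 scale, and Etfb had 4630, 4935, 4144 and 4572, a range of 0.25. For Etfb 58.2% of exon bases are shared with other gene models on the same strand. Etfdh, the oxidoreductase that takes over the electrons, had 480, 372, 482 and 647, with a log2 fold change of 0.80 for the tumor in exercised mice.

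The uncoupling proteins, carriers of the inner mitochondrial membrane that are raised by fatty acids, both rose with the tumor in exercised mice. Ucp3, the form of skeletal muscle, had normalized read counts of 592, 145, 251 and 562. Exercise alone and the tumor alone each had lower values than normal control, while the library with both, at 562, was close to its 592. Ucp3 changed at least 2-fold in each of the 4 comparisons. It fell by 2.02 (-2.28 to -1.78) with exercise in healthy mice and by 1.24 (-1.47 to -1.02) with the tumor without exercise, and rose by 1.16 (0.94 to 1.39) with exercise in tumor-bearing mice and by 1.95 (1.71 to 2.21) with the tumor in exercised mice. Ucp2, which is widely expressed, had 140, 98.0, 280 and 414 and rose by 2.07 (1.78 to 2.38) in the last comparison. No run of 50 bases is shared between the transcripts of these neighbours on chromosome 7.

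Ketone body genes were led by Oxct1. It encodes the transferase that commits ketone bodies to oxidation outside the liver, and its normalized read counts were 5340, 2279, 1327 and 2474. Normal control was high and the other libraries were lower. Oxct1 fell by 1.23 (-1.30 to -1.16) with exercise in healthy mice and by 2.01 (-2.10 to -1.92) with the tumor without exercise. Bdh1, the dehydrogenase of 3-hydroxybutyrate, had 195, 114, 319 and 199, and Acat1, a thiolase, had 3590, 3184, 3215 and 4655, both under 2-fold throughout.

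The tumor effects without and with exercise come from separate pairs of libraries. In both, 9 members rose (Acot1, Acot2, Acsl6, Pnpla2, Plin3, Plin4, Plin5, Acacb and Mlycd), 18.8% against 6.15% of all genes, and 2 fell (Acsl3 and Acaa1a), 4.17% against 7.4%. Angptl4 and Ucp3 fell in the first and rose in the second, as did 1.6% of all genes. The sign was the same for 32 members (66.7%), close to the 65.6% of all genes. The effects of exercise without and with a tumor, also from separate libraries, had the same sign for 17 members and opposite signs for 31 (64.6%), against 51.3% of all genes with opposite signs. Ucp3 was the only member past 2-fold in both, falling in healthy and rising in tumor-bearing mice.

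**Figure D3:**
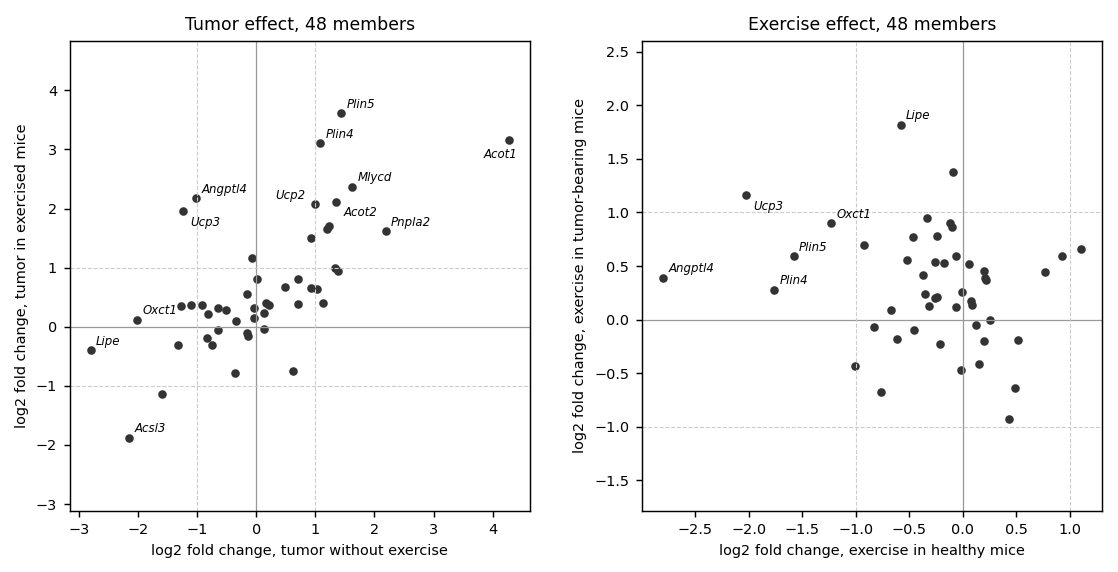
Left, log2 fold change of each member with the tumor without exercise (horizontal) and in exercised mice (vertical), and right, with exercise in healthy (horizontal) and in tumor-bearing mice (vertical), with dashed lines at a 2-fold change. On the left Plin4 and Plin5 are far above the 0 line at 3.11 and 3.61 and Angptl4 and Ucp3 lie at upper left, and on the right most points are within 2-fold and 31 of 48 have opposite signs.

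The log2 fold change for exercise in tumor-bearing mice, less that in healthy ones, was above 0 for 36 members and below 0 for 12, with a median of 0.45, against a median of 0.02 over 15485 genes. The shares of all genes above and below 0 were not computed. The difference reached 1 or more on the log2 scale in 13 of the 48 members, against 21.7% of all genes. It was -1 or less in 2 of the 48, against 19.3%. It was 3.19 for Ucp3, 3.18 for Angptl4, 2.40 for Lipe, 2.17 for Plin5, 2.13 for Oxct1 and 2.04 for Plin4. The lowest were -1.36 for Acsl4 and -1.13 for Acot1. With 1 library per group this difference could not be tested.

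PPAR bound to its partner RXR recognises DR1, 2 copies of AGGTCA that are spaced by 1 base. Promoter windows of 300 bases (250 before and 50 after the RefSeq start, GRCm38.p6) were given for 41 of the 48 members, 49 windows in all. DR1 with at most 2 mismatches in its 12 fixed letters, on either strand, was found in 6 of the 49 windows (12.2%) and in 3.86% of all 32851 windows. No member window had it with fewer mismatches. A single AGGTCA on either strand, which a DR1 may contain, was present in 22.4% of the member windows and 16.3% of all. The members were Ucp3, Plin2, Echs1, Cd36, Slc25a20 and Etfa, which ranged from Ucp3, changed in all comparisons, to Etfa, changed in none. The 3 with the widest range of values are shown, with the match in capitals, Ucp3 at chr7:100472895-100472990 on the plus strand, and Plin2 at chr4:86670227-86670309 and Echs1 at chr7:140116447-140116549, both on the minus strand.
Ucp3: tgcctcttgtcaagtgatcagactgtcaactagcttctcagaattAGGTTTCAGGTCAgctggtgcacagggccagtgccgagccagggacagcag
Plin2: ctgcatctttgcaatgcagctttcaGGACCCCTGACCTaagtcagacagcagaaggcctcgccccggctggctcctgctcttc
Echs1: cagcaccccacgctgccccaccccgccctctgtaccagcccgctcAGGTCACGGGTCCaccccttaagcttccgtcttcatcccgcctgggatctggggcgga
The match begins 51 bases before the start in Ucp3, 225 in Plin2 and 83 in Echs1, and in Plin2 it is read on the strand opposite to the one printed. A match is a description of letters and not a site of binding, and the absence of a match says nothing of the factor.

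Regulators of the pathway included genes with wider changes than most members. Of 15, 0 rose (against 9.44% of all genes) and 2 fell (13.3%, against 12.1%) with exercise in healthy mice. The tumor without exercise gave 5 higher (33.3%, against 20.9%) and 2 lower (13.3%, against 24.2%). Exercise in tumor-bearing mice gave 2 higher (13.3%, against 15.6%) and 3 lower (20%, against 15.1%). The tumor in exercised mice gave 5 higher (33.3%, against 13.9%) and 1 lower (6.67%, against 16.3%). Falls in the first comparison and rises in the third were close to the background. Pdk4 encodes the kinase that shuts off pyruvate dehydrogenase and so spares glucose for fat. It had normalized read counts of 427, 21.7, 1060 and 969. Its order of libraries was that of Plin4 and Plin5 except that cancer control and cancer exercise were exchanged, and its log2 fold change was -4.23 for exercise in the healthy pair and 5.42 with the tumor in exercised mice. Klf15, a transcription factor induced by fasting and glucocorticoids, had 187, 42.0, 1332 and 586, again lowest in normal exercise. Rxrg, an RXR gene, had 867, 1389, 41.8 and 366, with log2 fold changes of -4.34 for the tumor without exercise and 3.10 for exercise in tumor-bearing mice. Rxra, another RXR gene, had 871, 1263, 1457 and 879 and did not change 2-fold in any comparison. Of the PPAR genes, Ppara rose with the tumor in exercised mice by 1.51, and Ppard and Pparg did not change 2-fold in any comparison.

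**Figure D4:**
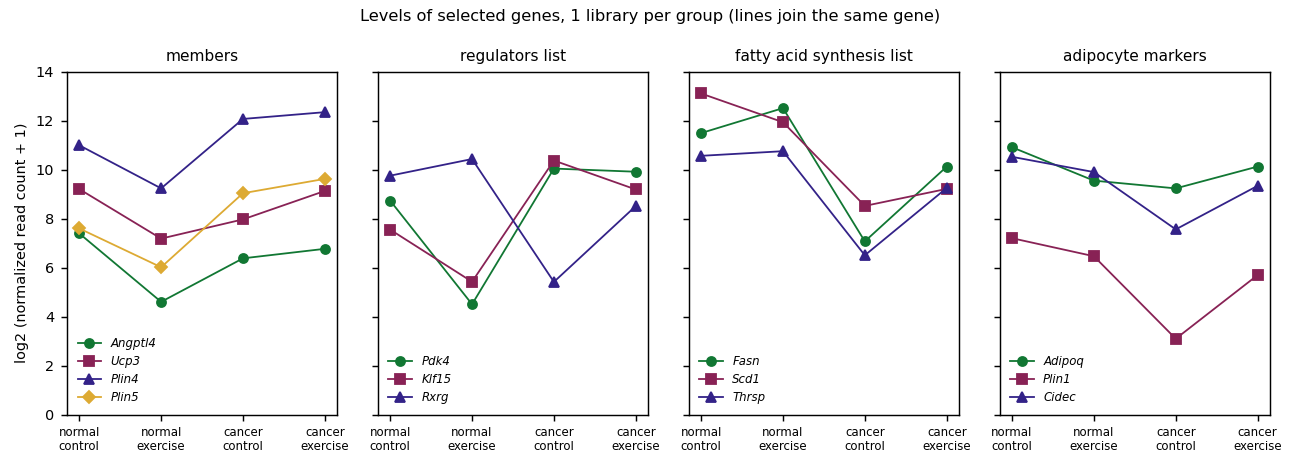
Level of selected genes in the 4 libraries (log2 of normalized reads plus 1), for members, regulators, fatty acid synthesis genes and adipocyte markers, with lines that only join points of the same gene. Angptl4, Ucp3, Plin4, Plin5, Pdk4 and Klf15 are lowest in normal exercise, whereas Fasn, Thrsp, Cidec and Plin1 are lowest in cancer control. The members, Cidec, Plin1 and Adipoq shown were selected after their values were seen.

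Many genes that make fatty acids fell with the tumor. Of 13 that passed the minimum, 0 rose and 7 fell (53.8%, against 24.2% of all genes) with the tumor without exercise, with a median of -1.02. With the tumor in exercised mice 0 rose and 10 fell (76.9%, against 16.3%), with a median of -1.5. Exercise in healthy mice gave 4 higher (30.8%, against 9.44%) and 1 lower (7.69%, against 12.1%). Exercise in tumor-bearing mice gave 3 higher (23.1%, against 15.6%) and 1 lower (7.69%, against 15.1%). Fasn, fatty acid synthase, had normalized read counts of 2897, 5877, 134 and 1119. Scd1, which desaturates stearate, had 8895, 3945, 367 and 596. Thrsp, a regulator of lipogenesis, had 1521, 1734, 90.0 and 611. These genes are abundant in fat as well, and the summed level of the adipocyte markers was also lowest in cancer control, although Pck1 and Cfd were lowest in normal exercise. The part of fat in their values was not tested.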

How the data were processed

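QuantSeq libraries were read on a NextSeq 500, and alignment by the authors used Bowtie2. Gene counts came from Bedtools, and the authors normalized them by the quantile method of edgeR. The processing notes name mm10. Tool versions, annotation and the handling of strand, duplicates and shared reads were not given in the sources used here. The deposited tables hold log2 values (normalized reads plus 1) of 23282 rows for each of 4 libraries, each library assigned to its group by its title. Fold changes were differences of these log2 values, a scale that understates changes of low genes. A change was called at 2-fold or more with 4 or more normalized reads in either library.

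Reads were rebuilt from the log2 values with 1 scaling factor per library and a fitted dispersion of 0.339. All values (100%) came from whole reads within 0.0006, and 94.9% to 96.2% were tied to a single read number. Intervals (95%, Clopper-Pearson) use these reads. Simulated reads were used to check the procedure. Scaling by total count, TMM or median of ratios, pseudocounts of 0 and 4, no minimum or one of 16, a fold of 1.5 and thinned reads were tried. Python 3.11.15, numpy 2.4.6, scipy 1.17.1, pandas 2.3.3 and matplotlib 3.10.9 were used.

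The 48 members, their 8 role groups and the other lists were chosen with earlier results of these data known. All members may be named. Full values were given for those with the widest range of log2 values in each role group (5 in groups of over 10, 4 in groups of 6 to 8, all in smaller ones), the 5 that rose and 5 that fell most in each comparison, and up to 3 of each other list, at 16 or more normalized reads. Other genes named from those lists were chosen after their values were seen. Positions are from GENCODE M21 and promoters from RefSeq. Protein sequences were not used here, and some genes of the other lists are counted but not reported singly here.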

Additional observations from a re-analysis of the deposited data

Results flagged for a closer look

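For Ucp3 and Angptl4 an effect went at least 2-fold one way in 1 pair of libraries and at least 2-fold the other way in another pair. The log2 fold change of Angptl4 with the tumor was -1.02 without exercise and 2.17 in exercised mice, a difference of 3.18. For Ucp3 it was -1.24 and 1.95, a difference of 3.19. Ucp3 also changed in opposite directions with exercise, by -2.02 in healthy and 1.16 in tumor-bearing mice, which gives 3.19 again because both differences are made from the same 4 values. None of these differences was tested, since each group had 1 library. The fall of Angptl4 with the tumor without exercise was between -0.95 and -0.99 under 4 other settings and then missed 2-fold.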

How the results depend on the processing

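Of 108 recomputed counts and medians of the members, 97 kept their direction and stayed close to the reported value, 9 moved and 2 changed sign. Of 1728 recomputed log2 fold changes of single members, 1656 stayed within their counting interval and 0 of the called ones changed sign. The settings with no minimum, one of 16 or a fold of 1.5 use the deposited values unchanged. They could not alter any single fold change. TMM could hardly do so, since its factors nearly equalled those of the deposited values (0.940208 against 0.940235 in normal control). The totals for counts and medians, single members and the 376 values below therefore follow in part from the settings. Of 376 recomputed values for the 47 changes of at least 2-fold, 7 fell short of it when rounded to 2 decimals, all in Lpl, Angptl4 and Acsl6. Total count scaling took Cpt1a past 2-fold (1.09, exercise in healthy mice) and Ucp2 too (1.06, tumor without exercise, 1.02 by median of ratios). With total count scaling the median of all genes went from -0.01 to 0.15 for exercise in healthy mice and from -0.03 to -0.19 for the tumor in exercised mice. The members then gave 2 higher and 5 lower (1 and 6 as reported) and a median of -0.03 (-0.19) for exercise in healthy mice, a median of 0.06 (-0.01) for the tumor without exercise, and one of 0.22 (0.37) for the tumor in exercised mice. The median of ratios turned the median for the tumor without exercise to 0.03. A fold of at least 1.5 gave 3 higher and 11 lower (6 at 2-fold) for exercise in healthy mice, 15 lower (9) for the tumor without exercise, 14 higher (3) and 3 lower (0) for exercise in tumor-bearing mice, and 4 lower (2) for the tumor in exercised mice, since the threshold itself was lowered. TMM scaling, a pseudocount of 0 and no minimum or one of 16 left every count of members as it was. All 48 members passed the minimum of 4 in every comparison, so dropping it could not change a count. The minimum of 16 lowered the share of all genes called in each comparison. A pseudocount of 4 and thinned reads each gave 8 lower (9) for the tumor without exercise and 13 higher (14) for the tumor in exercised mice. No paired analysis was possible because each group had 1 library, and for the same reason no library could be left out. Depth limits Acot1 most, with 11 reads in normal control.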

Other observations

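Genes of the same pathway outside the 48 members gave further values. Of all genes, 20.9% rose and 24.2% fell with the tumor without exercise, and 13.9% and 16.3% in exercised mice. The shares were 9.44% and 12.1% with exercise in healthy mice and 15.6% and 15.1% with exercise in tumor-bearing mice. Of the 12 peroxisomal genes, 1 rose and 7 fell with the tumor without exercise, with a median of -1.38, and with exercise in tumor-bearing mice 4 of 11 rose and 0 fell. Acox3 had 149, 202, 20 and 238 reads, in the order of libraries used above, and Acaa1b had 46, 28, 1 and 20, so that cancer control was the low library for both. Of the 16 genes of triglyceride synthesis and lipolysis, 3 rose and 8 fell with the tumor without exercise, and 7 rose and 0 fell with exercise in tumor-bearing mice. G0s2, an inhibitor of the lipase encoded by Pnpla2, had normalized read counts of 1459, 4441, 143 and 715, lowest in cancer control, where Pnpla2 was highest. Pnpla3 had 199, 136, 0 and 34 reads. Plin1, the perilipin of fat cells, had 138, 108, 7 and 47 reads.

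Among 18 other genes of fatty acid and related acyl-CoA metabolism, not all of them mitochondrial, 6 rose (33.3%) and 4 fell (22.2%) with the tumor without exercise. In exercised mice 6 rose (33.3%) and 3 fell (16.7%) with the tumor. The falls were close to the 24.2% and 16.3% of all genes. Acss1, which activates acetate in mitochondria, had normalized read counts of 230, 147, 2818 and 1428. Cpt1c had 17, 20, 2 and 0 reads and Acsf3 had 44, 14, 22 and 56. Of the 3 genes of ketone body synthesis, 0 rose and 2 fell with the tumor without exercise, and Bdh2 had 71, 88, 32 and 28 reads. Of 11 other uptake genes 9 passed the minimum with the tumor without exercise, and 0 of them rose and 4 fell (44.4%). Among the uptake genes with 16 or more normalized reads Fabp5, Fabp4 and Lmf1 had the widest ranges, at 1.95, 1.47 and 1.40 on the log2 scale. The citric acid cycle genes with the widest ranges were Idh3a (1.82), Idh2 (1.5) and Suclg1 (1.33), and 0 of 17 rose and 3 fell with the tumor without exercise.

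Of the 11 slow fibre genes, 9 rose with the tumor without exercise. Exercise gave 4 higher in the healthy pair and 3 lower in the tumor-bearing pair. Their summed normalized read count was 11648, 19639, 38435 and 22193. Slow fibres burn more fat than fast fibres, and the part of fibre type in the member values was not tested. Of the 11 fast fibre genes 1 rose and 5 fell with the tumor without exercise. Of 9 macrophage and neutrophil markers 8 passed the minimum, and 4 of them rose and 0 fell with the tumor, both without and with exercise. Of the 5 hepatocyte markers past the minimum, 4 rose with the tumor without exercise and 5 fell with exercise in tumor-bearing mice, and the list held at most 0.0167% of the reads of a library.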
